A study of Drosophila melanogaster with 3 samples.

Results

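Genes for mitochondrial ribosomal proteins were examined in late pupal wings of *Drosophila melanogaster*. A gene belonged to this group when a probe set carried exactly 1 gene symbol and that symbol began with mRpL or mRpS followed by a digit. The rule found 69 of 11982 named genes. By symbol alone, 44 were counted with the large subunit (mRpL) and 25 with the small subunit (mRpS). Each gene was read from 1 probe set, and where several existed, as for mRpL47 and mRpS11, the one with the highest mean log2 signal over the 3 arrays was used. The RefSeq gene table lists 73 genes with such symbols. Of the other 4, mRpL53 and mRpS10 had probe sets shared with another gene, and no annotated probe set was found for mRpL34 and mRpL37.

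Mitochondria carry their own ribosome, which descends from the bacterial one and translates the few protein-coding messages of the mitochondrial genome into core subunits of the respiratory chain and the ATP synthase. Its RNAs are transcribed inside the organelle, whereas its proteins are encoded in the nucleus, made in the cytosol and imported. Many of them have bacterial relatives, and others were added in the mitochondrial lineage. In flies, loss of such proteins impairs respiration and growth.

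The wings came from pupae of Oregon R, a laboratory wild-type strain, kept at 25 C and staged by eye from wing pigmentation at about 80 h after puparium formation (APF), when the adult wing cuticle is being completed. RNA was taken from batches of 40 flies, and 3 biological replicates were each hybridised to 1 Affymetrix array. All arrays form a single group with no treatment, mutant or second time point, and the sex of the pupae is not given in the labels. Dissected wings hold several cell types, so a signal here cannot be divided into the number of cells and the RNA per cell.

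Signals are given on the log2 scale, as probe set values for replicates 1, 2 and 3 in that order. A reference level was set on each array by 85 genes whose products belong to other organs (odorant receptors, eggshell and male accessory gland proteins), as the 95th percentile of their signals. It lay at 6.54, 6.72 and 6.58. A gene was called above the reference when limma's one-sided moderated test on its log2 difference from that level gave an adjusted p under 0.05 over all 11982 genes. Differences are means over the 3 arrays with the standard error (SE) of the moderated fit. Probes differ in how strongly they bind, so a difference from the reference describes detection of a gene and does not rank transcript abundance between genes.

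All 7 measured markers of wing epidermis (vg, nub, ap, bs, Dll, salm and en) were above the reference. Of the markers of other cell types, 4 of 6 for muscle, 3 of 3 for glia and 4 of 4 for fat body were above. For haemocytes 2 of 4 were, for neurons 1 of 4, for trachea 1 of 2 and for testis 2 of 5. The share over all genes was 46.2%. Not called were Hml and He for haemocytes, elav, nSyb and para for neurons, btl for trachea, and Mst87F, Mst84Da and can for testis. Of the neuron markers, elav (difference 1.02, limma adjusted p = 0.0591) and para (0.97, adjusted p = 0.0548) were over the reference on all 3 arrays. Snap25 was called (3.03), and nSyb lay far below (-3.55). With counts near or below that share, the presence of haemocytes, neurons, trachea and testis cells was not established, and neither was their absence. The summed signal of the muscle markers ranged from 13.17 to 13.69 over the arrays and came mostly from sls, the fly titin gene, at 13.32. The flight muscle genes Act88F (8.93) and fln (8.18) were above the reference, and up and TpnC4 were not. What these cell types contributed to the signals of the ribosomal genes was not tested.

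Most mitochondrial ribosomal protein genes gave signal above the reference in the late pupal wing. The count was 65 of 69 (94.2%), against 46.2% of all genes tested. Of the 65, 57 lay at least 2-fold (87.7%) and 30 at least 4-fold (46.2%) over the reference level, whereas among all 5535 genes above the reference 90% and 66.2% did (41.6% and 30.6% of all genes tested). On the arrays themselves 67 of the 69 were over it on each of the 3 arrays, against 48.7% of all genes. The median difference from the reference was 1.80 for the 69 genes and 0.20 for all named genes. The median of the group fell to 1.16 where the 99th percentile set the level and to 1.38 where no odorant receptors were used. The middle 50% of the genes lay between 1.22 and 2.34, whereas the middle 50% of all named genes ran from -1.86 to 2.53. Single genes of the group spanned -0.31 to 4.59. No set test was made on these counts.

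**Figure D1:**
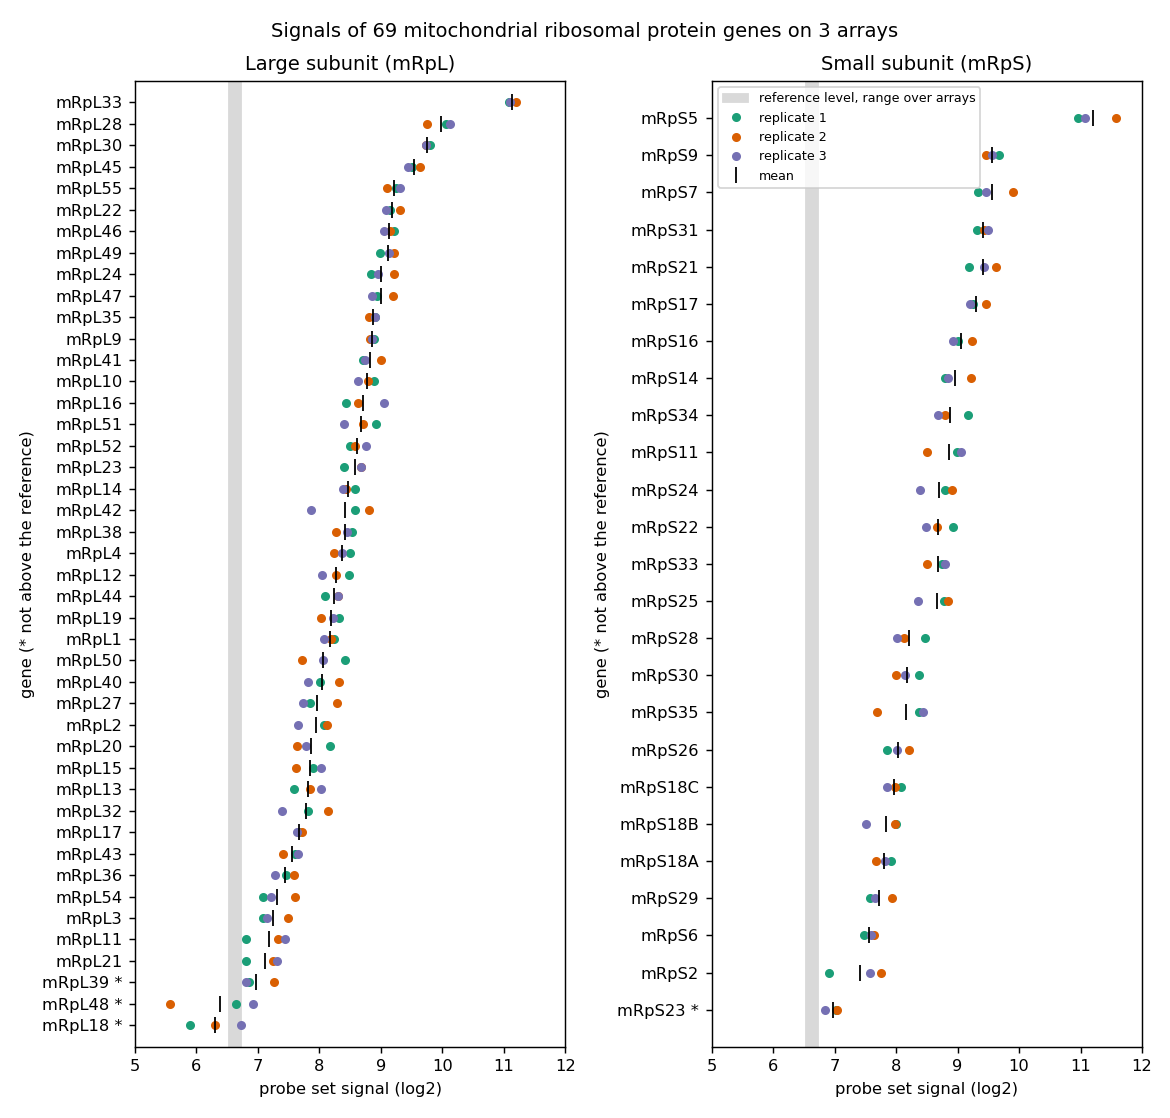
Log2 probe set signal (horizontal axis) of each mitochondrial ribosomal protein gene on the 3 arrays, with 44 large subunit genes on the left and 25 small subunit genes on the right. Coloured points are replicates, the black tick is their mean, the grey band spans the reference levels of the arrays (6.54 to 6.72), and an asterisk marks the 4 genes not called above the reference. mRpS5 and mRpL33 lie near 11 and the other genes at 10.13 or lower on every array.

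Among large subunit proteins with bacterial relatives, 27 of 28 genes were above the reference (96.4%, against 46.2% of all genes). The median difference of the 28 genes was 1.61. mRpL33, which encodes a small protein of the large subunit, had the highest difference of them, with log2 signals of 11.09, 11.20 and 11.11 (difference 4.52, SE 0.12; limma adjusted p = 8.68e-05). mRpL28 followed with 10.06, 9.74 and 10.13 (3.36, SE 0.18). mRpL30 had 9.79, 9.74 and 9.74 (3.14, SE 0.13). These 3 genes lay well over the reference on every array, and the replicates of mRpL33 and mRpL30 differed by 0.11 or less.

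Proteins that line the exit tunnel of the bacterial ribosome, through which the growing chain leaves, were represented by mRpL22, mRpL23, mRpL24 and mRpL4. mRpL22 had signals of 9.14, 9.31 and 9.09 (difference 2.57), and mRpL24 had 8.85, 9.21 and 8.96 (2.39). mRpL23 had 8.40, 8.68 and 8.67 (1.97), and mRpL4 had 8.50, 8.24 and 8.36 (1.75). All 4 were above the reference with adjusted p between 0.000217 and 0.00108 in limma.

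The stalk of the large subunit recruits translation factors, and its proteins are related to those encoded by mRpL10, mRpL11 and mRpL12. mRpL10, the scaffold that holds the stalk dimers in bacteria, had signals of 8.89, 8.79 and 8.63 (difference 2.15, SE 0.14; limma adjusted p = 0.000472). mRpL12, the factor-binding stalk protein, had 8.49, 8.27 and 8.04 (1.65, SE 0.17; adjusted p = 0.00158). mRpL11, at the stalk base, had only 6.80, 7.32 and 7.44 (0.57, SE 0.18; adjusted p = 0.0421). mRpL10 and mRpL12 were clear of the reference on every array, whereas mRpL11 was close to it. The call of mRpL11 was lost when any single replicate was left out (difference from 0.43 to 0.73, adjusted p from 0.0505 to 0.174), and its difference was -0.07 with the 99th percentile as reference.

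Further large subunit genes were taken as examples after their values were seen. mRpL2, whose bacterial relative lies close to the peptidyl transferase centre, had 8.07, 8.12 and 7.66 (difference 1.34), and mRpL27, whose bacterial relative reaches into that centre, had 7.85, 8.30 and 7.74 (1.35). mRpL16 had 8.43, 8.64 and 9.06 (2.09). mRpL1, related to the protein of the mobile stalk that helps release deacylated tRNA, had 8.24, 8.19 and 8.07 (1.55). mRpL9 and mRpL35 repeated closely, with SDs of 0.03 and 0.06 and differences of 2.24 and 2.26. These 6 genes were above the reference in limma with adjusted p between 0.000357 and 0.00251.

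Closer to the reference were mRpL3, mRpL21 and mRpL36. mRpL3, related to a core protein that starts assembly of the bacterial subunit, had signals of 7.09, 7.49 and 7.15 (difference 0.63, SE 0.13; limma adjusted p = 0.0142). mRpL21 had 6.81, 7.25 and 7.32 (0.51, SE 0.16; adjusted p = 0.0421). mRpL36 had 7.46, 7.60 and 7.28 (0.83, SE 0.13; adjusted p = 0.0062). The calls of mRpL3 and mRpL21 did not survive leaving out any single replicate, with adjusted p from 0.0559 to 0.0684 and from 0.0641 to 0.188, whereas mRpL36 stayed above each time. Without replicate 1, 2 or 3 the differences were 0.67, 0.56 and 0.66 for mRpL3 and 0.63, 0.50 and 0.40 for mRpL21.

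mRpL18 was the exception among the large subunit genes with bacterial relatives. It encodes the relative of a protein that binds 5S rRNA in bacteria. Its signals of 5.89, 6.31 and 6.73 gave a difference of -0.31 (SE 0.22; limma adjusted p = 1), and it exceeded the reference on replicate 3 alone. It was called in none of the alternative settings.

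Of the 16 large subunit genes for proteins added in the mitochondrial lineage, 14 were above the reference (87.5%, against 46.2% of all genes). The median difference of the 16 genes was 1.80. mRpL45, whose mammalian relative lies at the tunnel exit facing the inner membrane, had signals of 9.51, 9.64 and 9.45 (difference 2.92, SE 0.12; limma adjusted p = 0.000163). mRpL55 had 9.26, 9.10 and 9.31 (2.61). mRpL46 had 9.22, 9.15 and 9.05 (2.53), and mRpL49 had 8.99, 9.21 and 9.14 (2.5). The SDs of these 4 genes over the arrays were 0.09 to 0.11. mRpL44, a protein with a ribonuclease III fold, had 8.09, 8.30 and 8.31 (1.62), and mRpL38, which belongs to the phosphatidylethanolamine-binding protein family, had 8.52, 8.27 and 8.45 (1.80).

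mRpL54 lay near the reference, with 7.09, 7.61 and 7.22 (difference 0.69, SE 0.14; limma adjusted p = 0.0135). Leaving out replicate 2 (0.59, adjusted p = 0.0524) or replicate 3 (0.72, adjusted p = 0.0635) ended the call. mRpL39 and mRpL48 were not called. mRpL39 had 6.86, 7.26 and 6.81, over the reference on all 3 arrays but with a difference of 0.36 (SE 0.14; adjusted p = 0.0735). mRpL48 had 6.65, 5.58 and 6.92, so that it was over the reference on replicates 1 and 3 and 1.15 below it on replicate 2. Its difference was -0.23 (SE 0.37; adjusted p = 1), or 0.23 without replicate 2, and its SD of 0.71 was the largest of the 69 genes.

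All 15 small subunit genes for proteins with bacterial relatives were above the reference, against 46.2% of all genes. The median difference of the 15 genes was 2.24. mRpS5, related to a protein at the entry site of the message in bacteria, had 10.95, 11.58 and 11.07 (difference 4.59, SE 0.16; limma adjusted p = 0.000115). Replicate 2 was the highest for mRpS5 by 0.51. mRpS9 had 9.68, 9.46 and 9.56 (2.95, SE 0.15), and mRpS7, related to an early-binding protein of the bacterial subunit head, had 9.34, 9.89 and 9.45 (2.95, SE 0.15). mRpS21, mRpS17, mRpS16 and mRpS14 followed with differences of 2.80, 2.69, 2.44 and 2.34.

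The gene with the smallest difference in this class was mRpS2, with 6.91, 7.75 and 7.58 (0.80, SE 0.20; limma adjusted p = 0.0235). Replicate 1 was lower than the other replicates by 0.67 or more. It was no longer called when replicate 2 (0.69, adjusted p = 0.102) or replicate 3 (0.70, adjusted p = 0.1) was left out. mRpS6 was also near the reference at 7.47, 7.63 and 7.59 (0.95) but repeated with an SD of 0.08.

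Animals have several proteins related to bacterial S18, and the fly genes mRpS18A, mRpS18B and mRpS18C encode relatives of it. In the mammalian mitochondrial ribosome the mRpS18A relative sits in the large subunit, although its name assigns it to the small one. mRpS18A had signals of 7.91, 7.67 and 7.82 (difference 1.19, SE 0.15; limma adjusted p = 0.00333). mRpS18B had 8.0, 7.99 and 7.51 (1.22, SE 0.17; adjusted p = 0.00399), from a probe set of a type that can hybridise to more than 1 transcript. mRpS18C had 8.08, 7.98 and 7.85 (1.36, SE 0.14; adjusted p = 0.00166). All 3 were above the reference on every array.

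Among the 10 small subunit genes for proteins added in the mitochondrial lineage, 9 were above the reference (90%, against 46.2% of all genes). The median difference of the 10 genes was 1.80. mRpS31 had signals of 9.32, 9.43 and 9.49 (difference 2.80, SE 0.13; limma adjusted p = 0.000197). mRpS34 had 9.17, 8.79 and 8.69 (2.27). mRpS29, the fly relative of the GTP-binding protein DAP3 of mammals, had 7.57, 7.93 and 7.65 (1.10; adjusted p = 0.00232). mRpS30, whose mammalian relative is found in the large subunit, had 8.37, 8.0 and 8.15 (1.56). Like mRpS18A, it was counted with the small subunit by its symbol. mRpS23 was not called, with 7.01, 7.04 and 6.84 (0.35, SE 0.13; adjusted p = 0.0672). It was over the reference on all 3 arrays by a small margin.

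The shares above the reference ran from 88.5% to 97.7% over the subunits and classes, against 46.2% of all genes. Of the large subunit genes 41 of 44 were above the reference (93.2%; median difference 1.70), and of the small subunit genes 24 of 25 (96%; 2.06). Proteins with bacterial relatives gave 42 of 43 (97.7%; 1.75) and those added in the mitochondrial lineage 23 of 26 (88.5%; 1.80). Within proteins with bacterial relatives the median was 1.61 for large and 2.24 for small subunit genes. Of the genes called, 39% of large and 58.3% of small subunit genes lay at least 4-fold over the reference, against 66.2% of all. Differences between these shares and medians were not tested.

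**Figure D2:**
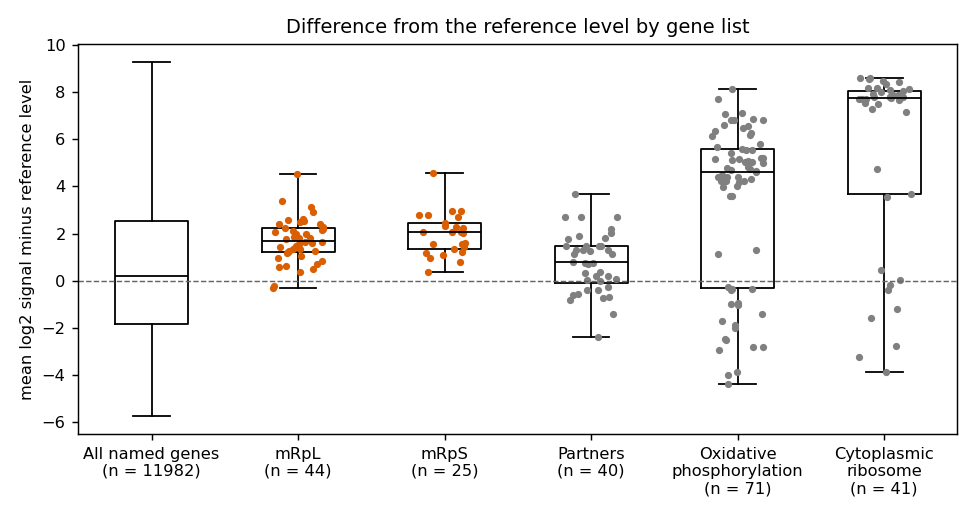
Mean log2 difference from the reference level (vertical axis, 0 dashed) for all named genes and for 5 lists. Boxes span the middle 50% with the median, whiskers reach the extremes, and points are genes. Large and small subunit genes of the mitochondrial ribosome lie between -0.31 and 4.59, and the cytoplasmic ribosomal and oxidative phosphorylation lists extend both higher and lower.

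The replicates of the mitochondrial ribosomal protein genes repeated with a median SD of 0.19 on the log2 scale, and single genes ranged from 0.03 to 0.71. For all named genes the median SD was 0.33, and for other named genes with a mean in the range of this group it was 0.19. Across the 69 genes Pearson's r between arrays was 0.93 for replicates 1 and 2, 0.95 for 1 and 3, and 0.93 for 2 and 3, a description across genes that are not independent replicates and share the array's scale. The array with the highest value of a gene was replicate 1 for 22 genes, replicate 2 for 31 and replicate 3 for 16, which are shares of 31.9%, 44.9% and 23.2% against 35.3%, 40% and 24.8% of all named genes.

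Some genes above the reference varied more. mRpL42 had the largest SD of them (0.49), with 8.58, 8.81 and 7.87, so that replicate 3 lay 0.70 below the nearest other array. mRpS35 (SD 0.42) was low on replicate 2, with 8.37, 7.68 and 8.44. mRpL32 (SD 0.38) had 7.82, 8.14 and 7.39, and mRpL50 (SD 0.35) had 8.42, 7.72 and 8.06. mRpS2 (SD 0.44) and mRpL11 (SD 0.34), given before, were low on replicate 1. The array that stood apart thus differed between these genes. All but mRpL11 and mRpS2 stayed above the reference when any single replicate was left out.

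As a group the genes did not sit higher on any array by much. The median deviation from each gene's own mean was 0.03, 0.05 and -0.05 on replicates 1, 2 and 3, and for all named genes it was 0.02, 0.05 and -0.05. Small subunit genes gave 0.07, 0.08 and -0.10, and large subunit genes 0.02, 0.03 and -0.03. With each array centred on the median of all named genes the group's deviations became 0.03, -0.043 and 0.048. Those of all named genes became 0.02, -0.040 and 0.044. For both, the sign on replicates 2 and 3 thus depended on the scaling.

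**Figure D3:**
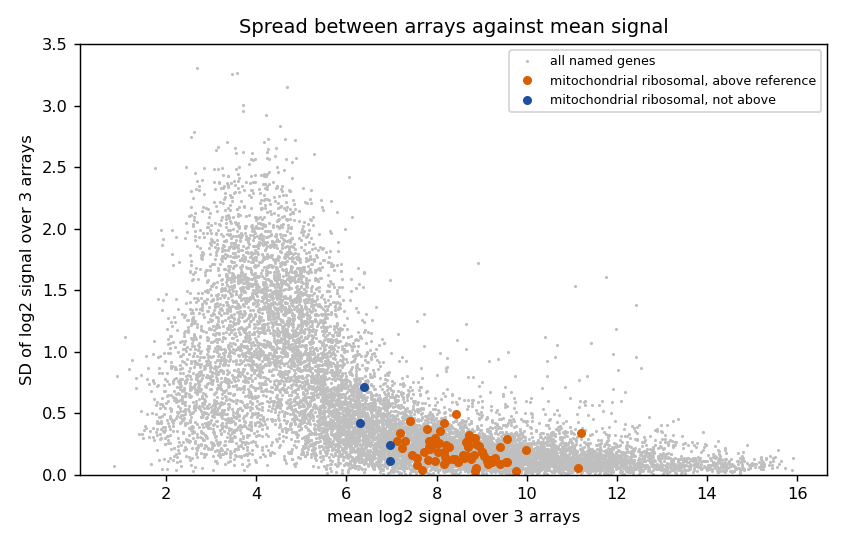
SD of the log2 signal over 3 arrays (vertical axis) against the mean log2 signal (horizontal axis). Grey points are all named genes, orange points mitochondrial ribosomal protein genes above the reference and blue points the 4 that were not. The group lies among genes of like signal, and its highest point is mRpL48 at an SD of 0.71.

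For 2 genes a second probe set was available. mRpL47, which encodes the relative of bacterial L29, was read from a probe set with 8.94, 9.21 and 8.86 (difference 2.39), while its other probe set had 7.19, 7.21 and 7.83 (0.80). The means differed by 1.59, and replicate 3 was the lowest array in the former and the highest in the latter. The 2 probe sets of mRpS11 were closer, with 8.99, 8.51 and 9.05 for the one used and 8.66, 8.61 and 8.37 for the other, a difference in means of 0.30.

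The wider machinery of mitochondrial gene expression was represented by 40 measured genes that do not carry mRp symbols, of which 23 were above the reference (57.5%, against 46.2% of all genes; median difference 0.77, against 0.20). The list included small subunit proteins with other names. tko, the fly gene for the S12 relative, had 9.29, 9.38 and 9.24 (difference 2.69, SE 0.12), and bonsai, the gene for the S15 relative, had 9.21, 9.27 and 9.50 (2.71, SE 0.15). Both lay clear of the reference on every array.

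Among translation factors 5 of 9 were above (55.6%, against 46.2% of all genes). The elongation factor gene mEFTu1 had 9.29, 9.13 and 9.52 (difference 2.70), its relative mEFTu2 8.41 to 8.65 (1.90), the exchange factor gene mEFTs 7.97 to 8.32 (1.48), and the translocase gene mEFG1 7.57 to 7.94 (1.15). The recycling factor gene mRRF1 was above at 0.74. Not called were the initiation factor genes mIF2 (6.80, 6.79 and 6.36; difference 0.03) and mIF3 (6.39, 5.67 and 5.36; -0.81), the release factor gene mRF1 (5.49, 6.90 and 6.20; -0.42) and mRRF2 (5.43, 5.94 and 6.23; -0.75). The difference of mIF2 was -0.08 without replicate 1 and -1.85 when its probe sets were averaged.

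Of 15 genes for mitochondrial aminoacyl-tRNA synthetases and the related protein Slimp, 6 were above the reference (40%, against 46.2% of all genes). PheRS-m had 9.01, 8.75 and 8.68 (difference 2.20), and LeuRS-m, SerRS-m, AspRS-m, CysRS-m and TyrRS-m were above by 0.80 to 1.46. The genes not called were ValRS-m (0.30), TrpRS-m (0.21), IleRS-m (0.18), ArgRS-m (0.08), GluRS-m (-0.38), ProRS-m (-0.56), AsnRS-m (-0.62), Slimp (-0.71) and MetRS-m (-1.41). MetRS-m varied most among the partners, with 6.57, 5.82 and 3.22. Without replicate 1 the difference of IleRS-m was -0.08.

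Genes of mitochondrial transcription and RNA handling were above in 8 of 11 cases (72.7%, against 46.2% of all genes). scu, a dehydrogenase whose human relative is also a subunit of the mitochondrial RNase P, had 10.25, 10.54 and 10.15 (difference 3.70). TFAM, which packages mitochondrial DNA and activates its transcription, had 8.47, 8.30 and 8.36 (1.76), and the RNA-binding gene bsf had 8.22, 8.09 and 7.90 (1.46). The mitochondrial RNA polymerase gene PolrMT was not called, with 6.91, 6.31 and 6.51 (-0.04, or 0.15 without replicate 2), nor were Lrpprc2 (0.36) and mldr (-2.39). Of the genes of mitochondrial DNA maintenance, the single-strand binding protein gene mtSSB was above (1.31) and mtDNA-helicase was not (-0.28). OXA1L, named for the membrane insertase that works with the mitochondrial ribosome, was above (1.30).

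Ribosomal proteins of the cytoplasm and the subunits of oxidative phosphorylation gave different distributions. The 41 genes taken by symbol for ribosomal proteins of the cytoplasm included those with names ending in -like. Genes without a probe set of exactly 1 symbol, such as RpL27A, were left out. Of the 41 genes, 32 were called (78%, against 46.2% of all genes). The median difference over the 41 genes was 7.78. The 9 others were all named as copies or variants of another ribosomal protein gene, namely RpS5b (6.22 ± 0.72, SD, n = 3), RpS10a, RpS19b, RpS28a, RpS28-like, RpL10Aa, RpL22-like, RpL37-2 and RpLP0-like. Of 71 oxidative phosphorylation genes 52 were above (73.2%, against 46.2% of all genes). Over the 71 genes the median difference was 4.62, with a middle 50% from -0.31 to 5.57. Of the 19 not called, 17 carry the letter L at the end of their symbol, as in COX4L and ATPsynGL, and the others were ND-B8 and UQCR-11. The symbol ATPsynepsilonL also ends in L, and that gene was above (1.3). No contrast with the mitochondrial ribosomal protein genes was tested.

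In RefSeq gene order (Release 6 plus ISO1 MT) no mitochondrial ribosomal protein gene of this group stood next to another one. Their immediate protein-coding neighbours comprised 124 other measured genes, and 81 of these were above the reference (65.3%, against 46.2% of all genes). This is a description with no test.

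Over 13 settings that measured all 69 genes, the reported one included, 56 genes were above the reference every time. Another 11 were above in some settings (mRpL3, mRpL11, mRpL21, mRpL32, mRpL36, mRpL39, mRpL43, mRpL54, mRpS2, mRpS6 and mRpS23), and mRpL18 and mRpL48 in none. With the 99th percentile as reference 56 genes were above, against 40% of all genes tested.

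**Figure D4:**
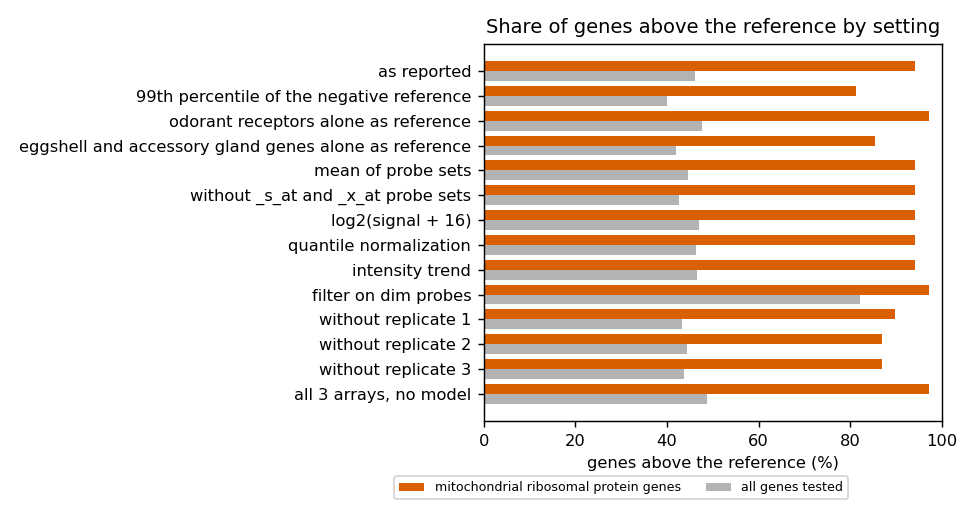
Share of genes above the reference (horizontal axis, percent) under the reported setting and 13 alternatives, for mitochondrial ribosomal protein genes (orange) and for all genes tested (grey). The count for the group ranged from 56 to 67 of 69 genes. With the filter on dim probes the grey bar rises to 82.2% because the filter keeps only the 7026 genes over the reference on any array.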

How the data were processed

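Wings of Oregon R pupae were measured on 3 Affymetrix arrays. The deposited values were probe set intensities on a linear scale for 18952 probe sets. MAS5 and RMA are named, with no role or version, per the submitters' processing notes. Every array had a 2% trimmed mean of 500.0, a feature of MAS5 scaling. The number of arrays limits the precision. The genome build is not given in the sources used here.

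Intensities were used as log2 values, with no further normalization. Genes were named through the platform annotation, 13647 probe sets having 1 symbol and 402 several. The Entrez identifiers of all 69 genes were found in RefSeq with unchanged symbols. The reference held 56 odorant receptor genes and 29 eggshell and accessory gland genes. The lmFit and eBayes functions of limma 3.58.1 (R 4.3.3) were run on all 11982 genes, with Benjamini-Hochberg adjustment, and the script was tested on simulated data.

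The genes and lists were chosen with earlier results of these data known. Genes were named by rule: those not above the reference, the 6 smallest and 8 largest differences, the 6 largest SDs, discordant probe sets, the S18 and stalk proteins, and among the partners those not called and the 5 largest. Further genes were chosen as examples after their values were seen. The cytoplasmic, oxidative phosphorylation and neighbour comparisons were added after the values were seen. Of the 72 entries of the partner list 40 distinct genes were measured. Alternatives changed the reference, probe set rule, pseudocount (16), normalization, variance trend, filter, replicates and call rule. Planned promoter and protein features were not analysed here. Python 3.11.15, pandas 2.3.3, numpy 2.4.6 and matplotlib 3.10.9 were used.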

Additional observations from a re-analysis of the deposited data

Results flagged for a closer look

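Both probe sets that an mRp gene shares with another gene carried signal, although they were outside the comparisons because their signal cannot be assigned to 1 gene. The probe set of CG33155 and mRpL53 had log2 signals of 10.02, 9.91 and 10.03, with a mean difference of 3.37 from the reference. The probe set of CG34316 and mRpS10 had 7.82, 7.65 and 7.70, with a mean difference of 1.11. Both shared probe sets were over the reference level on all 3 arrays, and no test was made. CG34316 also had a probe set of its own, with a mean difference of -3.79, which was not called above the reference. Which gene gave the shared signal was not tested. Groups of 3 arrays are too small for the check for outlying samples.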

How the results depend on the processing

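The count of mitochondrial ribosomal protein genes above the reference ranged from 56 to 67 and stayed within 1.5 times the reported 65 in all 13 alternatives, as did the counts of large subunit (34 to 42), small subunit (22 to 25) and partner genes (18 to 24). Leaving out 1 replicate gave 60 to 62 genes of the group, 37 to 38 large subunit, 23 to 24 small subunit and 21 to 22 partner genes. The share over all genes was then 43.2% to 44.3%. The median difference of the group was 1.69 to 1.87. The 99th percentile lowered the median difference from 1.80 to 1.16, and eggshell and accessory gland genes alone lowered it to 1.38, since both raise the level. With arrays centred on the median of all named genes the deviation moved to -0.043 on array 2 and 0.048 on array 3. That of all named genes moved alike, to -0.040 and 0.044. In 25 cases the difference of a gene named by rule changed sign. With the 99th percentile mRpL3 (-0.014), mRpL11 (-0.068), mRpL21 (-0.13), mRpL39 (-0.28), mRpS23 (-0.29), ArgRS-m (-0.57), IleRS-m (-0.46), Lrpprc2 (-0.29), TrpRS-m (-0.43), ValRS-m (-0.34) and mIF2 (-0.61) lay below the reference. With eggshell and accessory gland genes alone this held for mRpL39 (-0.057), mRpS23 (-0.066), ArgRS-m (-0.34), IleRS-m (-0.23), Lrpprc2 (-0.061), TrpRS-m (-0.21), ValRS-m (-0.11) and mIF2 (-0.38). The mean of probe sets put mIF2 at -1.85, and odorant receptors alone put PolrMT at 0.14. On leaving out 1 replicate the difference ranged from -0.083 to 0.43 for IleRS-m, -0.078 to 0.16 for mIF2, -0.24 to 0.15 for PolrMT and -0.52 to 0.23 for mRpL48. mRpL39 and mRpS23 were above with odorant receptors alone (0.54 and 0.53, limma adjusted p = 0.0312 and 0.0284). They were also above by the rule of 3 arrays without a model and with the filter on dim probes. That filter kept only genes over the reference on any array, so calls gained under it are no separate support. Over the genes and partners named by rule, without the further examples, 586 values kept direction and call. Without a change of sign, 22 lost the call and 9 gained it. The calls of mRpL3, mRpL11 and mRpL21 were also lost with the 99th percentile, where their sign changed. No paired analysis was possible because the design holds 1 group. With 3 arrays, calls close to the reference rest on few values, and those of mRpL3, mRpL11, mRpL21, mRpL54 and mRpS2 were lost on leaving out 1 replicate or another.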
